A study of Xenopus laevis with 4 samples.

Results

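The genes described here are the core of the canonical Wnt pathway: beta-catenin (ctnnb1), the genes of its destruction complex gsk3b, axin1 and apc, the DNA-binding partners lef1, tcf7, tcf7l1 and tcf7l2, and the target genes axin2 and sp5. They were taken by gene symbol, as every probe set that the platform annotation assigns to 1 of these 10 genes alone. All 10 genes were measured, by 23 of the 16745 probe sets tested, which represent 15 of the 11295 gene copies on the array that could be named. Xenopus laevis carries a pair of related copies (homeologs) of many genes, marked .L and .S. Both copies were represented for ctnnb1, axin1, axin2, tcf7l1 and sp5, only the .L copy for gsk3b, apc and tcf7l2, and only the .S copy for lef1 and tcf7.

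The measurements come from Affymetrix arrays hybridised with total RNA of whole skins taken from Xenopus laevis embryos at stage 24. There were 2 control arrays, labelled as untreated with no vehicle named, and 2 arrays of embryos exposed to SP600125, an inhibitor of c-Jun N-terminal kinase (JNK), from stage 14 to stage 24. No strain, genotype or allele is given for either group. Each sample pooled 20 skins from embryos raised at 15 °C, and the dose is labelled 100 mM, a unit the data cannot check. The series title describes the epidermis as depleted for JNK signalling. Nothing in the labels tells if replicate samples came from different clutches. Every p-value therefore rests on the spread between these samples alone, and that spread may be technical.

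In the canonical pathway, the destruction complex phosphorylates beta-catenin and marks it for degradation. A Wnt signal at Frizzled and LRP receptors stops this, and beta-catenin then accumulates, enters the nucleus and joins TCF/LEF proteins to activate genes such as axin2 and sp5. Axin2 is itself a brake on beta-catenin, so its transcript is often read as a measure of pathway activity. In the frog embryo the pathway patterns the dorsal axis, the posterior body and the neural crest, and in embryonic epidermis it takes part in the formation of multiciliated cells and in the control of basal cells. Beta-catenin protein also links cadherins to the actin cytoskeleton, and its stability is set largely after translation. An array of transcripts therefore reads neither the amount of this protein nor its activity directly.

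The values are RMA levels on the log2 scale, with 1 unit equal to a doubling of signal. Precision is limited by the number of arrays. Some epidermal transcripts were bright in all arrays: the keratin krt12.4.L read between 13.76 and 13.92 and the secreted lectin itln1.L between 14.15 and 14.22. Others were dimmer and less level, such as the epidermal marker tp63.S, between 6.02 and 7.41. The arrays stood apart by replicate number more than by treatment, with 62.7% of the total sum of squares on the number and 20.8% on the treatment. Across all probe sets the Pearson correlation was 0.982 between the arrays numbered 1 and 0.986 between those numbered 2, against 0.968 between the controls and 0.964 between the SP600125 arrays. The labels do not say what the number stands for.

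None of the 23 member probe sets passed the test. The fit (limma, Benjamini-Hochberg adjusted p under 0.05) called 0 of the 23, against a background of 0% of all probe sets tested. At an unadjusted p under 0.05 it called 0 of the 23 against 1.61% of all. The smallest unadjusted p among the members was 0.131, and every adjusted p was 1. Of the 23 means, 18 were lower after SP600125 and 5 higher, while 47.3% of all probe sets had lower means. Differences are given as SP600125 minus control on the log2 scale, and their median was −0.20 over the members and 0.01 over all probe sets. The number of lower means was 13 without SP600125 replicate 2 and 14 without control replicate 1. In those runs the median was −0.04 and −0.05, with the replicate numbers unequal between the groups. The groups did not overlap for 5 of the 23. Both SP600125 arrays lay below both controls in 3 (9.25% of all probe sets) and above them in 2 (11.9% of all). Among the 16 members with a mean of 5 or more, 15 means were lower and 1 higher. The matching share among all probe sets of that brightness was not counted.

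**Figure D1:**
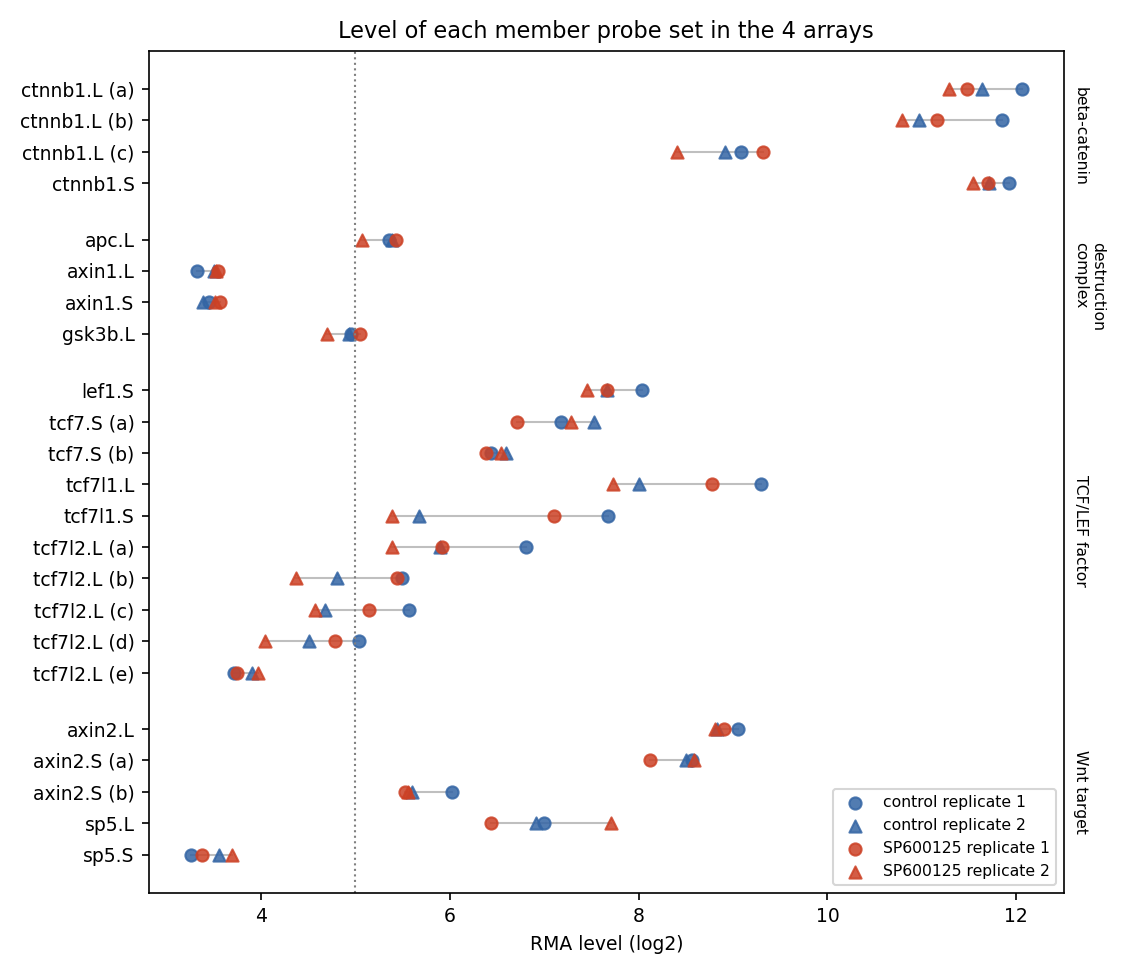
RMA level (log2, horizontal axis) of each of the 23 member probe sets in the 4 arrays, grouped by role; circles are replicate 1, triangles replicate 2, blue control, red SP600125, and letters order the probe sets of 1 gene copy by brightness. The dotted line marks a level of 5, and the widest rows are tcf7l1.S, from 5.39 to 7.68, and tcf7l1.L, from 7.73 to 9.30.

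Beta-catenin transcripts gave bright signals in the skins, and all 4 probe sets had lower means after SP600125, none of which passed the test. The brightest probe set of ctnnb1.L read 12.06 and 11.63 in the controls and 11.48 and 11.28 after SP600125. Both treated arrays lay below both controls, with a difference of −0.47 ± 0.25 (SE) and a 95% interval from −1.14 to 0.21. The probe set of ctnnb1.S read 11.92 and 11.71 in the controls and 11.70 and 11.54 after SP600125. Its groups did not overlap either, although the gap between the nearest arrays was small, and the difference was −0.20 ± 0.21. The second probe set of ctnnb1.L read 11.84 and 10.97 in the controls and 11.16 and 10.79 after treatment. Here SP600125 replicate 1 lay above control replicate 2, so the groups overlapped, and the difference was −0.43 ± 0.38. The third and dimmest read 9.08 and 8.92 in the controls and 9.31 and 8.41 after treatment, with the treated arrays on either side of the controls. The 4 differences all lay below 0, from −0.47 to −0.14, and all 4 intervals included 0. In all 4 probe sets the array numbered 2 was also the lower of its group.

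The destruction complex genes gave low signals and differences close to 0. The scaffold gene axin1 was dim in both copies: axin1.L read 3.33 and 3.51 in the controls and 3.55 and 3.53 after SP600125, and axin1.S read 3.45 and 3.39 in the controls and 3.57 and 3.51 after SP600125. Both treated arrays lay above both controls in each copy, by 0.12 on average for either (95% intervals from −0.41 to 0.66 for axin1.L and from −0.39 to 0.63 for axin1.S). At such levels RMA compresses differences, and a level under 5 was found for 27.7% of all probe sets. The kinase gene gsk3b.L, whose product phosphorylates beta-catenin, read 4.96 and 4.94 in the controls and 5.05 and 4.70 after treatment. The difference was −0.07 ± 0.22, with treated arrays above and below the controls. The scaffold gene apc.L read 5.36 and 5.39 in the controls and 5.44 and 5.07 after treatment, a difference of −0.12 ± 0.22 with the same overlap. SP600125 replicate 2 was the lowest array for both gsk3b.L and apc.L, and without it both differences were above 0, at 0.11 and 0.06.

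The TCF/LEF genes, which encode the proteins that carry beta-catenin to DNA, varied more between replicate numbers than between treatments. Of their 10 probe sets, 9 had lower means after SP600125, with a median difference of −0.32. The groups did not overlap in 0 of the 10, against 21.2% of all probe sets. In all 10 the difference between the numbers was larger than that between the groups. Over all probe sets this held for 11796 of 16745.

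The widest spread was that of tcf7l1, which encodes a TCF protein known mainly as a repressor of Wnt targets in the absence of beta-catenin. The level of tcf7l1.L was 9.30 and 8.004 in the controls and 8.77 and 7.73 after SP600125. That of tcf7l1.S was 7.68 and 5.68 in the controls and 7.102 and 5.39 after SP600125. In both copies the arrays numbered 1 were high and those numbered 2 low, whatever the treatment, with mean differences (number 2 minus number 1) of −1.17 and −1.85. A number difference at least as large as that of tcf7l1.S was found in 0.741% of all probe sets. The treatment differences were −0.40 ± 0.61 and −0.43 ± 0.94. Between the arrays numbered 1 they were −0.53 (.L) and −0.58 (.S), and between those numbered 2 they were −0.27 and −0.28. Both turned positive without control replicate 1 (0.25 and 0.57) or without SP600125 replicate 2 (0.12 and 0.42). Either run leaves the numbers unequal between the groups, so the large number difference enters the comparison.

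The gene tcf7l2.L, whose product can activate or repress, had 5 probe sets. The brightest read 6.81 and 5.90 in the controls and 5.92 and 5.39 after SP600125. Its difference of −0.70 ± 0.41, a 1.63-fold lower mean, was the largest among the 23 members with all arrays, with a 95% interval from −1.84 to 0.43. It was −0.24 without control replicate 1, −0.44 without SP600125 replicate 2 and −1.16 without control replicate 2. SP600125 replicate 1 nevertheless stood just above control replicate 2, so the groups overlapped. The next 3 probe sets had means between 4.59 and 5.03 and differed by −0.36 to −0.25, and in each of them the arrays numbered 2 were again the lower ones in both groups. The dimmest, with a mean of 3.84, differed by 0.05 ± 0.21 and was higher in the arrays numbered 2. It thus ran against the other 4 in both respects.

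The activator genes lef1 and tcf7 were steadier. The level of lef1.S was 8.04 and 7.66 in the controls and 7.67 and 7.46 after SP600125, a difference of −0.29 ± 0.24 with SP600125 replicate 1 and control replicate 2 almost level. The brighter probe set of tcf7.S read 7.18 and 7.53 in the controls and 6.72 and 7.29 after treatment. It was higher in the arrays numbered 2, as the dimmest tcf7l2.L probe set was, and its difference was −0.35 ± 0.30. The other probe set of tcf7.S, at 6.44 and 6.60 in the controls and 6.38 and 6.54 after treatment, differed by −0.06 ± 0.20.

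**Figure D2:**
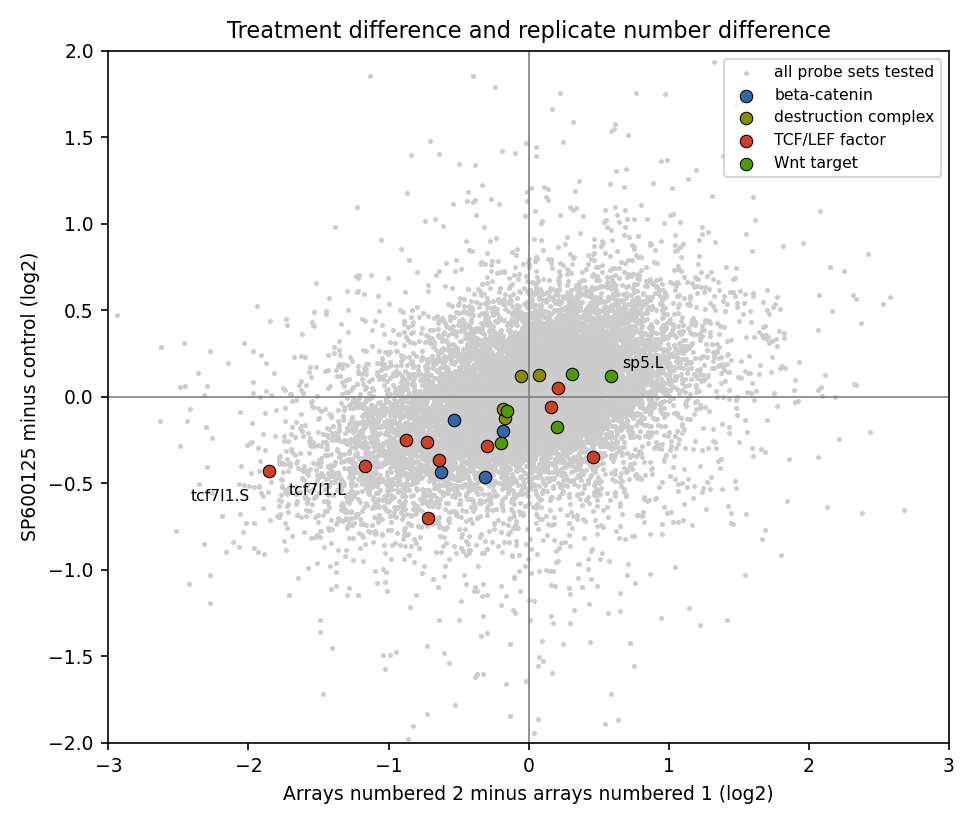
Difference between SP600125 and control (log2, vertical axis) against the mean difference between arrays numbered 2 and 1 (log2, horizontal axis) for all probe sets tested (grey) and the members by role (colours); 43 probe sets lie outside the range drawn. The tcf7l1 copies lie far left, at −1.17 and −1.85, while all members lie within −0.70 and 0.13 of the treatment axis.

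Neural and epidermal markers both shared this split in part, and so did the list of nuclear and cadherin partners counted below. Of 33 probe sets of neural and neural crest genes, 26 were lower on average in the arrays numbered 2, with a median of −0.56. Only 16 were lower there in both groups, and 5 were higher in both. Over all 16745 probe sets, 7195 were lower on average (median 0.06), 5102 lower in both groups and 6754 higher in both. Means were lower after SP600125 in 23 of the 33, with a median difference of −0.24. Their summed signal (log2) was 13.69 and 12.71 in the controls and 12.98 and 12.92 after treatment, and 8 of the 33 had a mean under 5. Control replicate 1 thus had the highest sum, while the treated arrays were nearly level. The pluripotency and neural plate factor sox2.L read 10.48 and 8.80 in the controls and 9.47 and 8.58 after treatment, with the arrays numbered 2 lower in both groups. The adhesion molecule gene ncam1.S read 7.27 and 5.63 in the controls but 6.38 and 6.65 after treatment, so its treated arrays ran the other way. These 2 genes were chosen as contrasting examples after their values were seen. Of 35 epidermal probe sets, 20 were lower in the arrays numbered 2 in both groups and 11 higher in both, with a median number difference of −0.52. Their summed signal ran from 16.60 to 16.69 in the controls and from 16.57 to 16.77 after SP600125. The brightest probe sets add most to such a sum. Of the 35, 2 had a mean under 5. The part of either tissue in the tcf7l1 and tcf7l2 values was not tested. In bulk skins, fewer cells of a type and less transcript per cell cannot be told apart.

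The direct target axin2, which feeds back on the pathway, had lower means after SP600125 in all 3 probe sets, none of which passed the test. The level of axin2.L was 9.05 and 8.83 in the controls and 8.90 and 8.81 after SP600125. The treated arrays lay within or just below the range of the controls, and the difference was −0.08 ± 0.20, with a 95% interval from −0.64 to 0.47. The brighter probe set of axin2.S read 8.56 and 8.50 in the controls and 8.12 and 8.59 after treatment, so that only SP600125 replicate 1 was low, for a difference of −0.18 ± 0.25. The dimmer one read 6.02 and 5.60 in the controls and 5.53 and 5.56 after treatment. Its groups did not overlap, by a narrow margin, and its difference was −0.27 ± 0.24. None of the 3 intervals excluded 0, and none reached a change of 1 log2 unit in either direction.

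The other target, sp5, encodes a zinc finger factor of the Sp family that acts downstream of Wnt in the posterior embryo. The level of sp5.L was 6.998 and 6.91 in the controls, but 6.44 and 7.71 after SP600125. The controls were nearly equal while the treated arrays fell on opposite sides of them, 1.27 apart, so the difference of 0.12 ± 0.48 is a mean of values that disagree in direction. It was −0.52 without SP600125 replicate 2 and 0.75 without SP600125 replicate 1. The copy sp5.S was dim, at 3.26 and 3.56 in the controls and 3.38 and 3.70 after treatment, a difference of 0.13 ± 0.24 with overlapping groups.

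**Figure D3:**
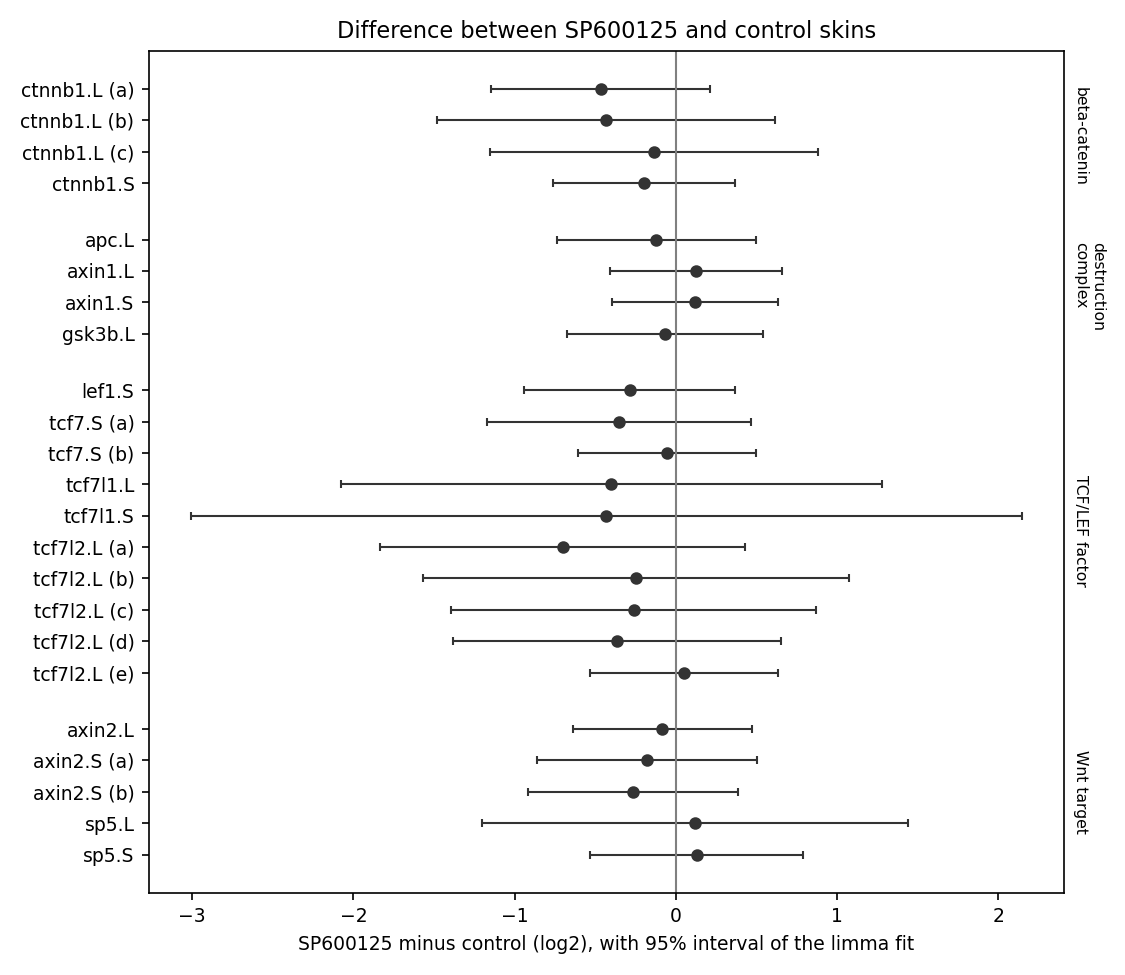
Difference between SP600125 and control (log2, horizontal axis) with the 95% interval of the limma fit for each member probe set, grouped by role; letters order the probe sets of 1 gene copy by brightness. All 23 intervals include 0, and the widest belongs to tcf7l1.S, from −3.01 to 2.15.

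Likeness to axin2 and sp5 was measured as the Euclidean distance between mean-centred levels over the 4 arrays. For axin2.L the nearest genes were gnao1.S, sf3b3.L and rab32.S, at distances of 0.01, 0.03 and 0.03. As axin2.L hardly varied, 173 probe sets lay within 0.1 of it. For sp5.L the nearest were rabgap1l.L, xmc.L and cfb.L, at 0.05, 0.12 and 0.12, and only 1 probe set lay within 0.1. Like sp5.L, rabgap1l.L was lowest in SP600125 replicate 1 (7.13) and highest in SP600125 replicate 2 (8.34), with 7.62 and 7.54 in the controls. With 4 arrays such a likeness is a description only.

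Other genes of the pathway were counted in 3 lists, none of which had a probe set past the adjusted threshold. The first held LRP receptors, Dishevelled, casein kinases and other regulators of the destruction complex, with 19 genes and 43 probe sets measured. Of these 28 had higher means and 15 lower, the median was 0.08, and 0 reached an unadjusted p under 0.05. Both SP600125 arrays lay above both controls in 8 (11.9% of all probe sets) and below them in 0 (9.25% of all). The smallest p belonged to csnk1d.S, a casein kinase gene, which read 9.82 and 10.29 in the controls and 10.73 and 10.70 after treatment (difference 0.66 ± 0.25). Its dimmest probe set differed by 0.81 ± 0.44, and the tankyrase gene tnks.S, whose product destabilises axin, by 0.49 ± 0.29. These 3 probe sets had treated arrays above both controls, and the last 2 were dim, with means of 4.88 and 4.41. Another csnk1d.S probe set, with a mean of 7.88, differed by 0.43, and another of tnks.S by 0.22.

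The second list held nuclear partners of beta-catenin and TCF and cadherin partners, with 22 genes and 43 probe sets. Here 29 means were lower, the median was −0.09, and 0 reached an unadjusted p under 0.05. Both SP600125 arrays lay below both controls in 3 (9.25% of all probe sets) and above them in 2 (11.9% of all). The median turned to 0.05 without control replicate 1 and to 0.07 without SP600125 replicate 2, runs with unequal replicate numbers between the groups. In the arrays numbered 2, 32 of the 43 were lower on average, with a median number difference of −0.54. They were lower there in both groups in 29 and higher in both in 6. The split by replicate number was thus not limited to the tissue marker lists. The Groucho-type corepressor gene tle2.L had the smallest p and read 9.43 and 8.98 in the controls and 8.20 and 8.75 after SP600125. Both treated arrays were the lower ones, with a difference of −0.73 ± 0.31. The related tle5.L differed by −0.47 ± 0.27, also without overlap, and the cadherin gene cdh3.L by −0.60 ± 0.49 with overlap. Their other copies tle5.S and cdh3.S differed by 0.07 and −0.16.

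The third list held genes known in vertebrates as Wnt targets or feedback regulators, with 35 genes and 72 probe sets. Of these, 58 had lower means, the median was −0.43, and both SP600125 arrays lay below both controls in 23 (9.25% of all probe sets) and above them in 1 (11.9% of all). At an unadjusted p under 0.05, 8 were lower and 0 higher, beside 0.908% lower and 0.699% higher among all probe sets, and 0 passed after adjustment. The median was −0.12 without control replicate 1, −0.65 without control replicate 2, −0.44 without SP600125 replicate 1 and −0.26 without SP600125 replicate 2. Such a run sets 1 replicate number against both, so the number difference enters these medians. Of the 72, 17 had a mean under 5. The counts are of probe sets, and some genes supplied several, such as pax3 with 7 and mycn with 4. The 8 probe sets at an unadjusted p under 0.05 belonged to pax3, msgn1, en2 and mycn.

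Each of these 4 genes has a domain outside the epidermis. The gene msgn1 encodes a factor of presomitic mesoderm: msgn1.L read 8.01 and 8.23 in the controls and 6.99 and 6.05 after SP600125, and differed by −1.60 ± 0.39. Its other copy msgn1.S differed by −1.12 ± 0.27. For pax3, a factor of somites and dorsal neural tissue, the 3 probe sets among the 8 differed by −1.01 to −0.91, and all 7 ranged from −1.12 to 0.11. The midbrain factor en2 differed by −1.10 ± 0.29 (.L) and −0.86 ± 0.25 (.S), and both its probe sets were dim, with means of 4.38 and 4.81. The growth regulator mycn.L, strong in neural tissue, differed by −1.10 ± 0.39. The 4 probe sets of mycn ranged from −1.10 to −0.46. In all 8 the treated arrays lay below the controls, which a choice by p largely fixes. Whether these targets differ from axin2 in their response was not tested.

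Markers of tissue under the skin lay lower in the same arrays. Of 35 probe sets of presomitic mesoderm and tailbud genes, 34 had lower means (median −0.52), with a summed signal (log2) of 12.60 and 12.10 in the controls and 11.66 and 11.58 after treatment. Of 35 muscle and somite probe sets, 31 had lower means (median −1.03), with sums of 13.88 and 12.95 against 11.30 and 11.94. Of 23 endoderm probe sets 21 were lower (median −0.31), with sums of 11.83 and 11.67 against 11.06 and 10.93. Means under 5 were found in 10, 15 and 12 of these probe sets. The foxa1 probe sets on the endoderm list, with means from 7.60 to 7.86, differed by only −0.08 to −0.02. Epidermal markers had 21 of 35 higher means and a median of 0.06. The target list and the presomitic list share 15 probe sets, and the other 57 target probe sets had 44 lower means and a median of −0.41. Those 57 still hold en2 and snai2, which are also on the neural and neural crest list, and pax3. They also hold genes on none of the tissue lists. Some were lower, as ccnd1.S (−0.59), ccnd1.L (−0.44) and apcdd1.L (−0.88), and some higher, as bambi.L (0.28). These examples were chosen after their values were seen. The part of these tissues in the target list was not tested.

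**Figure D4:**
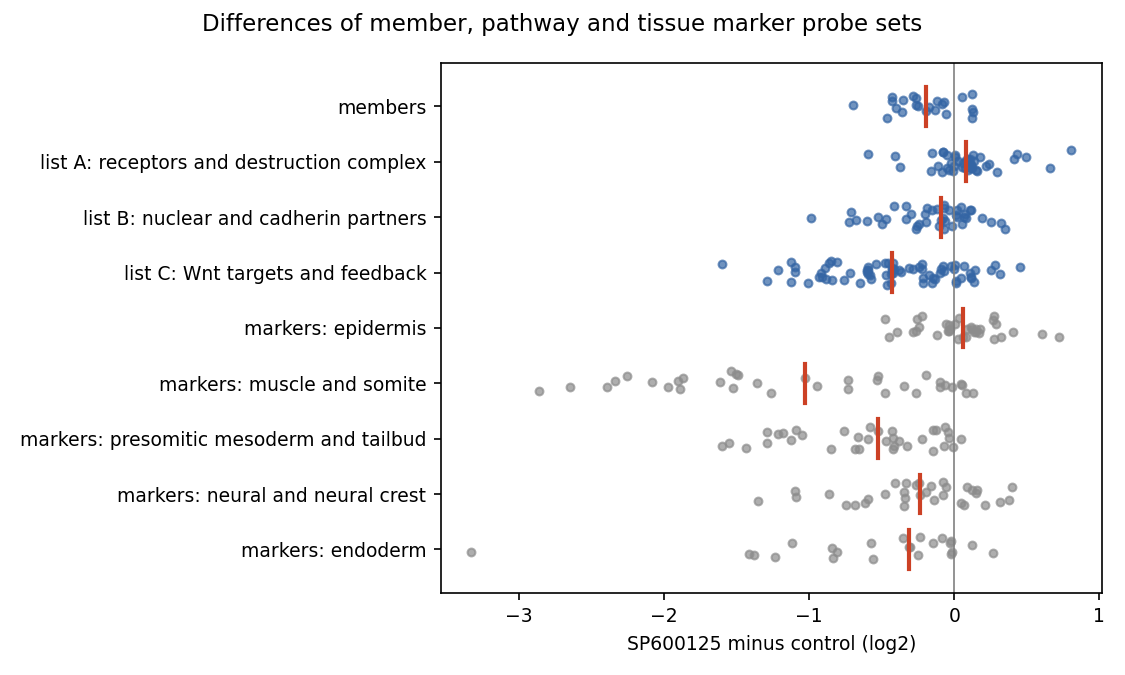
Difference between SP600125 and control (log2, horizontal axis) of each probe set (points) of the members, the 3 pathway lists (blue) and the tissue marker lists (grey), with each list's median as a red line. The Wnt target list, with a median of −0.43, lies between the members (−0.20) and the muscle and somite markers (−1.03).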

How the data were processed

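The authors deposited log2 values, 1 for each probe set on each array, made with affy and RMA per the submitters' processing notes, which give no version. Because RMA equalises the arrays' distributions by quantiles, a global change of most transcripts is removed. The probe definition, options and filters were not stated there. Values lay between 2.60 and 14.3, and the array medians between 6.85 and 6.94. Of 16755 probe sets, 10 controls were left out. Of the 16745 tested, 15445 had 1 gene symbol in GEO's platform annotation, 1021 none, and 279 more than 1, which were left unnamed. All 23 members matched a RefSeq gene with the same symbol. Probes of one homeolog can also bind the other, and brightness does not rank different probe sets.

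Groups came from the sample titles. SP600125 was compared with control using limma 3.58.1 in R 4.3.3 (lmFit, eBayes, 2 residual and 2.10 prior degrees of freedom, two-sided), with p-values adjusted by Benjamini-Hochberg across the whole table and a threshold of 0.05, after the script had been tested on simulated data. Figures were drawn with matplotlib 3.10.9. Pairs of values follow replicate order, and summed signals add unlogged values. Every member was named, and of each pathway list the probe sets with an unadjusted p under 0.05, or the 3 with the smallest p. Likeness was taken from the brightest probe set. Members and lists were chosen with earlier results of these data known. The alternatives were a replicate block, leaving out probe sets with a mean under 5, renewed quantile or cyclic loess normalization, a trended robust prior, 1 probe set per gene copy, and each array left out. The counts of lower means and the list values with an array left out were added after the data were seen.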

Additional observations from a re-analysis of the deposited data

How the results depend on the processing

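With the replicate number as a block, with dim probe sets left out, after renewed quantile or cyclic loess normalization, with a trended robust prior and with each array left out, 0 probe sets and 0 members passed the adjusted threshold in limma. Unadjusted, 269 probe sets and 0 members had a p under 0.05. Those numbers were 1063 and 1 with the replicate block and 158 and 0 without dim probe sets. The 1 member was the brightest probe set of tcf7l2.L (limma unadjusted p = 0.0236, and an adjusted p of 0.761). Arrays of the same number deviated together (correlation 0.585 over probe sets). The labels do not say that the number marks a shared clutch or day, so it was not treated as a pairing. In the main fit the number difference therefore stays in the spread behind each SE and p-value. The members' median ran from −0.26 to −0.18 in the runs with all arrays. With an array left out it ran from −0.27 to −0.04, the members' lower means from 13 to 17, and the count of all probe sets at an unadjusted p under 0.05 from 149 to 516.

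A run with an array left out sets 1 replicate number in one group against both in the other. The number difference therefore enters it and can change a sign. In such runs, 8 of the 23 members kept their sign in all 4 and 15 changed it in at least 1. For these 15 the lowest and highest differences were −0.14 and 0.025 for the dimmer tcf7.S, −1.05 and 0.25 for tcf7l1.L, −1.43 and 0.57 for tcf7l1.S, −0.87 and 0.0059 for the second ctnnb1.L, and −0.59 and 0.32 for the third. For tcf7l2.L, from the second to the fifth probe set by brightness, they were −0.78 and 0.29, −0.71 and 0.18, −0.74 and 0.0087, and −0.061 and 0.16. They were −0.19 and 0.027 for axin2.L, −0.41 and 0.059 for the brighter axin2.S, −0.52 and 0.75 for sp5.L, −0.029 and 0.29 for sp5.S, −0.30 and 0.060 for apc.L, and −0.24 and 0.11 for gsk3b.L. For the brightest tcf7l2.L, which kept its sign, they were −1.16 and −0.24. Taken within each replicate number, the treatment difference had opposite signs for the third ctnnb1.L, the brighter axin2.S, sp5.L, apc.L and gsk3b.L. The other members had the same sign at both numbers, among them the dimmer tcf7.S (−0.057 and −0.056) and the dimmest tcf7l2.L (0.039 and 0.064). Each such difference rests on 1 array per group. The median of the nuclear partner list ran from −0.44 to 0.071 and that of the target list from −0.65 to −0.12. A run with an array left out also takes the remaining single array to vary as the other group does. RMA compresses differences of dim probe sets, which limits axin1, gsk3b, sp5.S and 3 of the tcf7l2.L probe sets.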
